A study of Rattus norvegicus with 6 samples.

Results

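The 10 transcription factors followed here specify the cardiac lineage, and were measured by RNA sequencing of rat H9C2 cells: Gata4, Gata6, Nkx2-5, Tbx5, Tbx20, Hand1, Hand2, Tbx3, Meis1 and Isl1. They were taken by gene symbol from the 19825 genes of the deposited count table, in which 6 of the 10 had a row. These were Hand2, Meis1, Nkx2-5, Gata6, Gata4 and Tbx3. Tbx5, Tbx20, Hand1 and Isl1 had no row, are not analysed here, and are called neither present nor absent. H9C2 is an established line of myoblasts from embryonic rat heart, and the labels call it cardiomyocytes. The siPUM2 group (libraries 1, 2 and 3) had been transfected with small interfering RNA against the RNA-binding protein PUM2. The control group, NC (libraries 1, 2 and 3), had received an empty vector, by its treatment label. By that description the groups also differed in the kind of nucleic acid they received, and the labels do not mention a small interfering RNA without a target in the control. The comparison asks which messages change when PUM2 is lowered, and the control libraries alone show which of the factors the line expresses.

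The libraries held 27704702 to 30579237 counts, so that 1 count was worth 0.0327 to 0.0361 CPM (counts scaled to a common library size by TMM). Pum2 itself had 127, 126 and 120 CPM in siPUM2 1, 2 and 3, against 223, 228 and 225 CPM in NC 1, 2 and 3, with no overlap. The share of nuclear ribosomal RNA was 0.102% in siPUM2 3, against 0.0275% to 0.0510% elsewhere, and the main results are also given without siPUM2 3. No label states that a group's libraries were grown as separate cultures, and p-values here therefore reflect a spread between samples that may be technical. These are bulk libraries, in which fewer cells of a type and less RNA per cell cannot be told apart.

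In the embryo these factors work as a network. GATA zinc-finger proteins, the homeodomain protein NKX2-5 and T-box proteins bind near one another and to each other on the control regions of heart muscle genes, HAND proteins are basic helix-loop-helix factors of the developing ventricles, outflow tract and neural crest, and MEIS1 is a homeodomain protein of the TALE class that pairs with PBX proteins. ISL1, a LIM homeodomain protein, marks heart progenitors. Several of the factors also act outside heart muscle, for example in limb buds, gut, epicardium and sympathetic neurons, so the presence of 1 of them does not name a cell type.

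All 6 factors with a row were present, at 1 CPM or more in each siPUM2 library and in each NC library, so that the control cells expressed them without the knockdown. Levels can be compared between genes only per length, as FPKM (deposited values that take account of a gene's length and of library size). On that scale the mean of siPUM2 was 92.4 FPKM for Hand2, 14.2 for Meis1, 9.62 for Nkx2-5, 2.92 for Gata6, 2.37 for Gata4 and 1.21 for Tbx3. The NC libraries gave the same order, with means of 83.4 FPKM for Hand2, 15.4 for Meis1, 10.6 for Nkx2-5, 3.08 for Gata6, 2.59 for Gata4 and 1.28 for Tbx3. No neighbours in this order overlapped between their library values, in either group. The closest pair was Gata6 and Gata4, whose mean FPKM stood in a ratio of 1.23 in siPUM2 and 1.19 in NC, and the widest step was that of Hand2 over Meis1, 6.5 in siPUM2 and 5.42 in NC. Among the 15667 protein-coding genes with an FPKM value, Hand2 in NC stood above 94.4%, Meis1 above 76.8% and Nkx2-5 above 70.9%. The 2 GATA factors lay near the middle, Gata6 above 50.5% and Gata4 above 48.0%, and Tbx3 stood above 39.6%.

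**Figure D1:**
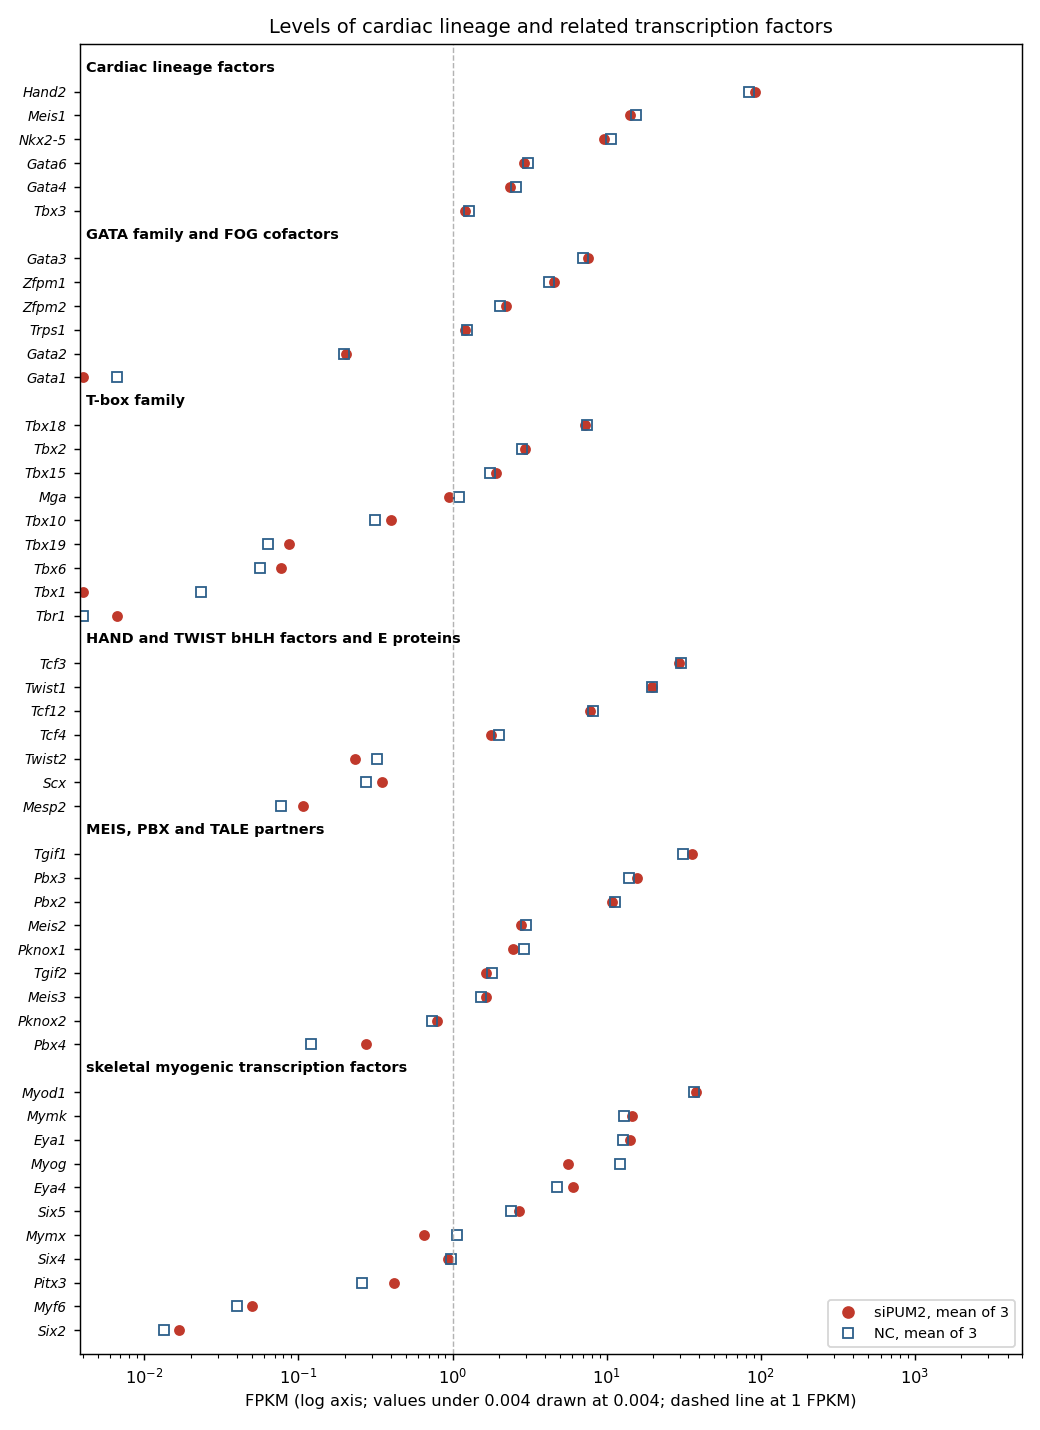
Mean FPKM on a log axis of the cardiac lineage factors with a row and of other, related transcription factors, for siPUM2 (filled circles) and NC (open squares), 3 libraries each. Hand2 lies highest among the cardiac lineage factors at 92.4 FPKM in siPUM2 and 83.4 FPKM in NC, and all 6 lie right of the dashed line at 1 FPKM.

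These factors differed little between siPUM2 and NC. Hand2 rose, Meis1 fell, and Nkx2-5, Gata6, Gata4 and Tbx3 did not pass the test. All 6 entered the test, the quasi-likelihood test of edgeR with Benjamini-Hochberg adjustment over 12985 genes, and those with an adjusted p below 0.05 were called. Of all genes tested, 28.4% were called, 15.1% higher in siPUM2 and 13.3% lower. Of the 6 factors 2 were called (33.3%), 1 in each direction, a share near this background. Groups that did not overlap were found for 39.9% of all genes and for 1 of the 6 factors, Hand2. The median log2 fold change was -0.10 over the 6 factors and 0.0011 over all genes tested. Summed over the 6 factors, the level was 173.5 to 175.0 CPM in siPUM2 and 171.0 to 179.3 CPM in NC, ranges that overlap.

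**Figure D2:**
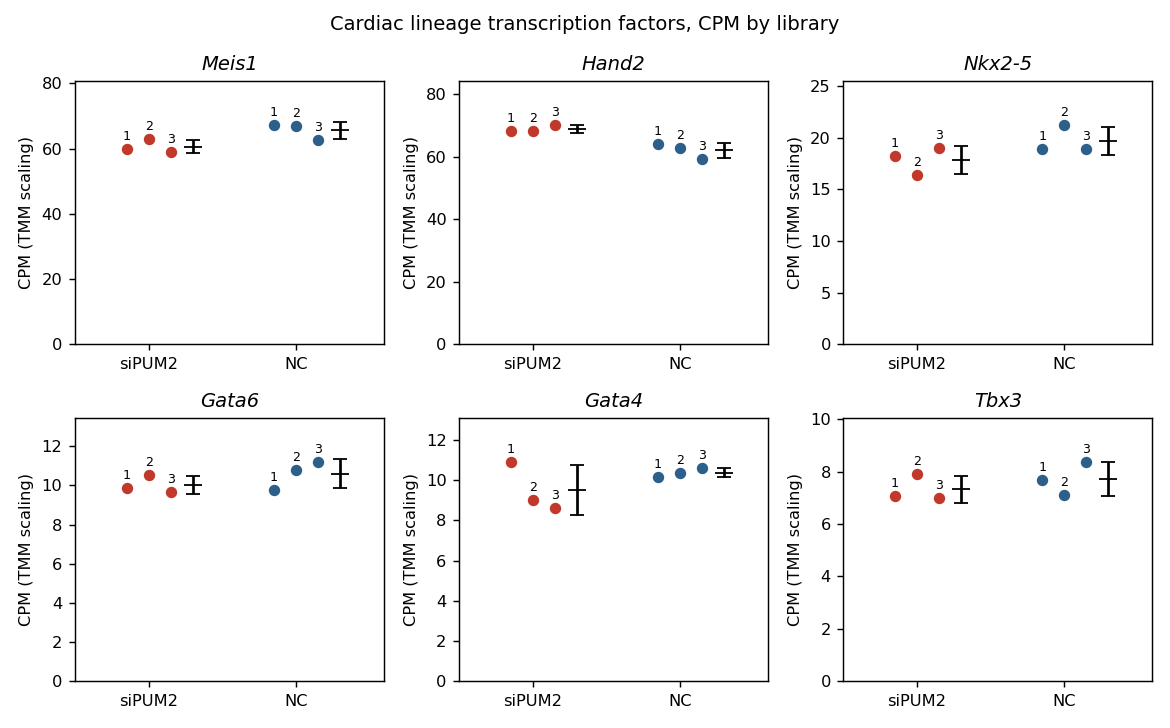
CPM of the 6 cardiac lineage factors with a row in each library (points, numbered by replicate), with the group mean and SD beside them, siPUM2 left of NC. The 3 siPUM2 libraries lie above all NC libraries for Hand2, and the groups overlap for the other 5 factors.

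Hand2 (chromosome 16), the bHLH factor that is required for growth of the right ventricle in the mouse, was measured at 68.1, 68.2 and 70.2 CPM in siPUM2 1, 2 and 3, against 64.0, 62.8 and 59.3 CPM in NC 1, 2 and 3. Every siPUM2 library was above every NC library, and NC 3 was the lowest of all. The means were 68.9 ± 1.19 CPM in siPUM2 and 62.1 ± 2.44 CPM in NC (SD, n = 3 each). The log2 fold change was 0.15 ± 0.0392 (SE), a rise of 1.11-fold with a 95% interval of 1.05 to 1.17 (adjusted p = 0.00418, edgeR). The call was lost without NC 3, where the log2 fold change was 0.12 and the adjusted p 0.0564, and was kept without siPUM2 3 at 0.13 and 0.0182. Of all genes tested, 61.1% had a smaller absolute log2 fold change than Hand2.

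Meis1 (chromosome 14), the TALE partner of PBX and HOX proteins that is known in the mouse to limit the division of heart muscle cells after birth, moved the other way. Its levels were 60.0, 62.9 and 59.0 CPM in siPUM2 1, 2 and 3, against 67.3, 67.0 and 62.5 CPM in NC 1, 2 and 3. The groups overlapped at a single place, with siPUM2 2 just above NC 3. The means were 60.6 ± 2.03 CPM in siPUM2 and 65.6 ± 2.68 CPM in NC (SD, n = 3 each), and Meis1 fell by 0.11 ± 0.0415 (SE) on the log2 scale (adjusted p = 0.0395, edgeR). This call held in 9 of 16 alternatives. It was lost with DESeq2 (adjusted p = 0.0636), on log2(FPKM + 1) and log2(FPKM + 0.1) with limma (0.0812 and 0.0778), and without siPUM2 1 (0.119), siPUM2 3 (0.10), NC 1 (0.164) or NC 2 (0.169).

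Among markers of other cell types, 100% of those tested were called for smooth muscle, and 66.7% each for skeletal muscle and for fibroblasts and epicardium. Of all genes tested, 28.4% were called, a share over genes of all depths, and no comparison at equal depth was made. Calls were made for 1 of 3 endothelial markers tested, 0 of 3 macrophage and leukocyte markers and 1 of 2 Schwann and neural markers. All 7 smooth muscle markers on the list rose (6 with DESeq2, and Des is on the skeletal list too), with a sum of 12170 to 12760 CPM in siPUM2 and 10710 to 10930 CPM in NC. Most of this sum was Acta2, at a mean of 9657 CPM in siPUM2 and 8514 CPM in NC. Of the 9 skeletal muscle markers tested, 1 rose and 5 fell, with sums of 152 to 165 CPM in siPUM2 and 171 to 191 CPM in NC (4 of the 9 called with DESeq2, against 6 with edgeR). Of 6 fibroblast and epicardial markers tested, Thy1 rose by 0.31 on the log2 scale, Postn fell by 0.63, Col3a1 by 0.10 and Col1a1 by 0.08, and Col1a2 and Tbx18 were not called. The call of Col1a1 was lost without siPUM2 2 (adjusted p = 0.0844, edgeR) or NC 2 (0.0716). The sum of this list was 18240 to 18670 CPM in siPUM2 and 18760 to 18830 CPM in NC, most of it Col1a1 and Col1a2. The part of these shifts in the changes of Hand2 and Meis1 was not tested.

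Nkx2-5 (chromosome 10), the homeodomain factor whose loss halts heart looping in the mouse, had 18.2, 16.4 and 19.0 CPM in siPUM2 1, 2 and 3, against 18.9, 21.2 and 18.9 CPM in NC 1, 2 and 3. NC 2 was the highest library and siPUM2 2 the lowest. The log2 fold change was -0.14 ± 0.0677 (SE), with a 95% interval of -0.28 to -0.0023 before adjustment, an unadjusted p of 0.0465 and an adjusted p of 0.124 (edgeR). Leaving out 1 library gave values between -0.19 without siPUM2 3 (adjusted p = 0.0620) and -0.08 without siPUM2 2 (0.460), and -0.09 without NC 2 (0.458).

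The GATA factors of the heart stood close together and did not change by the test. Gata4 (chromosome 15), needed in the mouse for the heart tube to form, had 10.9, 9.0 and 8.62 CPM in siPUM2 1, 2 and 3, against 10.2, 10.3 and 10.6 CPM in NC 1, 2 and 3. The coefficient of variation was 2.11% in NC, less than the scatter of 5.71% that counting alone gives. In siPUM2 it was 13.0%, against 6.09% from counting, with siPUM2 1 above NC and siPUM2 2 and 3 below it. The difference in spread between the groups was not tested. The log2 fold change was -0.12 ± 0.0932 (SE; adjusted p = 0.350, edgeR), and with 1 library left out it lay between -0.24 without siPUM2 1 (adjusted p = 0.0893) and -0.06 without siPUM2 3 (0.718). In RefSeq's annotation of the newer assembly GRCr8 a long noncoding RNA gene overlaps Gata4, and since the strand setting of the counting is not given in the sources used here, reads of the overlap may have come from either gene. Gata6 (chromosome 18), which overlaps with Gata4 in function, had 9.86, 10.6 and 9.69 CPM in siPUM2 1, 2 and 3, against 9.77, 10.8 and 11.2 CPM in NC 1, 2 and 3. Its log2 fold change was -0.08 with a 95% interval of -0.26 to 0.10 (adjusted p = 0.541, edgeR). With 1 library left out it lay between -0.14 without NC 1 and -0.04 without NC 3, and was -0.06 without siPUM2 3.

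Tbx3 (chromosome 12), a T-box repressor known for keeping the conduction system from taking on a working muscle fate in the mouse, was the lowest of the 6. It had 7.08, 7.92 and 6.97 CPM in siPUM2 1, 2 and 3, against 7.66, 7.09 and 8.38 CPM in NC 1, 2 and 3. The groups overlapped, and the log2 fold change was -0.07 with a 95% interval of -0.28 to 0.13 (adjusted p = 0.639, edgeR). It was -0.14 without NC 2, -0.0093 without NC 3 and -0.04 without siPUM2 3. With 199 to 257 counts per library, counting alone gives a scatter of 6.94% in siPUM2 and 6.62% in NC, against coefficients of variation of 7.11% and 8.39% between the libraries of each group. For Hand2 the counting scatter was 2.26% in siPUM2 and 2.33% in NC.

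The start regions of the 3 factors at the highest level are shown because they include both called genes, which moved in opposite directions. Each is the RefSeq window of 250 bases before to 50 bases after the gene's start on the build GRCr8, 5′ to 3′ on the gene's strand. Capitals mark matches, on either strand, to any of 6 short motifs: GATAA for GATA factors, CANNTG (the E-box of bHLH factors), GGTGTG (part of the T-box element), TGACAG for MEIS, AAGTG for NKX2 factors and the TATA box TATAAA. Hand2 lies at chr16:37931439-37931738 on the minus strand, Nkx2-5 at chr10:16848350-16848649 on the plus strand and Meis1 at chr14:97495034-97495333 on the minus strand.
Hand2: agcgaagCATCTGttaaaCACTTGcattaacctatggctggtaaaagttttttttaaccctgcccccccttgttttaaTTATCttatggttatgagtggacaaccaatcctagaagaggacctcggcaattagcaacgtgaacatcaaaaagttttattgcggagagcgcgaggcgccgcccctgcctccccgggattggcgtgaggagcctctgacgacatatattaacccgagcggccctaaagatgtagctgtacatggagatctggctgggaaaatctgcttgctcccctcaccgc
Nkx2-5: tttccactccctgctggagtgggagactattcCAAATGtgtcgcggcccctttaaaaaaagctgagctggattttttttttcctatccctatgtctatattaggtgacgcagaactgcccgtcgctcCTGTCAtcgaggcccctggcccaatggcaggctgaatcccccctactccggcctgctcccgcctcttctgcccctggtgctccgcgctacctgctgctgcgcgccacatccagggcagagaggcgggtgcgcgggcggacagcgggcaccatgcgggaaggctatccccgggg
Meis1: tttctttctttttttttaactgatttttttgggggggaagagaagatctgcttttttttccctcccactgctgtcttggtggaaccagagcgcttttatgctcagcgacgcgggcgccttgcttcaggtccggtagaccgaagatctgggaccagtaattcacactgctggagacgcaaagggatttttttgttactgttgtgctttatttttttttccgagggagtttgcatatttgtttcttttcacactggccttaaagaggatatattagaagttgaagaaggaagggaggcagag
The Hand2 window held 2 E-boxes, starting at -243 and -232, a GATA match at -172, and an NKX match at -232 that overlaps the E-box there. In the Nkx2-5 window there was an E-box at -218 and a MEIS match at -123. No match to the 6 motifs was found in the 300 bases of Meis1, whose G and C content was 43.7%, against 49.3% for Hand2, 61.3% for Nkx2-5 and a median of 51.7% over all 33469 rat windows. Of all windows, 72.1% hold an E-box, 46.2% the NKX letters, 26.5% the GATA letters, 19.0% the MEIS letters, 17.9% the T-box letters and 14.2% the TATA box. Windows were found for 8 of the 10 factors, all but Gata4 and Tbx3. Of these 8, an E-box lay in 4, the GATA and MEIS letters in 3 each, the NKX letters in 1, the TATA box in 1 (Hand1) and the T-box letters in 0. The matches describe the letters of these windows and say nothing of binding in these cells.

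Shares of FPKM within a family place each factor among its relatives. Of the summed FPKM of 5 GATA genes with a row, Gata3, better known from T cells, trophoblast and sympathetic neurons, held the largest share in every library, 57.9 ± 2.16% in siPUM2 and 54.3 ± 0.790% in NC (SD, n = 3 each), with no overlap. Gata6 held 22.4 ± 0.989% in siPUM2 and 23.9 ± 0.415% in NC, and Gata4 18.2 ± 2.39% and 20.2 ± 0.728%. The T-box sum took 8 genes and left out Mga (0.953 FPKM in siPUM2 and 1.11 in NC), Tbr1 and Tbx4, which also had rows. Of the sum of these 8, Tbx18, a factor of epicardium and sinus horn, held 52.2 ± 1.06% in siPUM2 and 54.0 ± 1.27% in NC. Tbx3 held 8.70 ± 0.717% and 9.27 ± 0.531%, behind Tbx2 and Tbx15. Hand2 made up 82.3 ± 0.190% of the HAND and TWIST sum in siPUM2 and 80.6 ± 0.673% in NC, with no overlap, and Twist1 made up most of the rest. Meis1 held 76.3 ± 1.95% of the MEIS sum in siPUM2 and 77.2 ± 0.718% in NC. These shares were not tested.

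**Figure D3:**
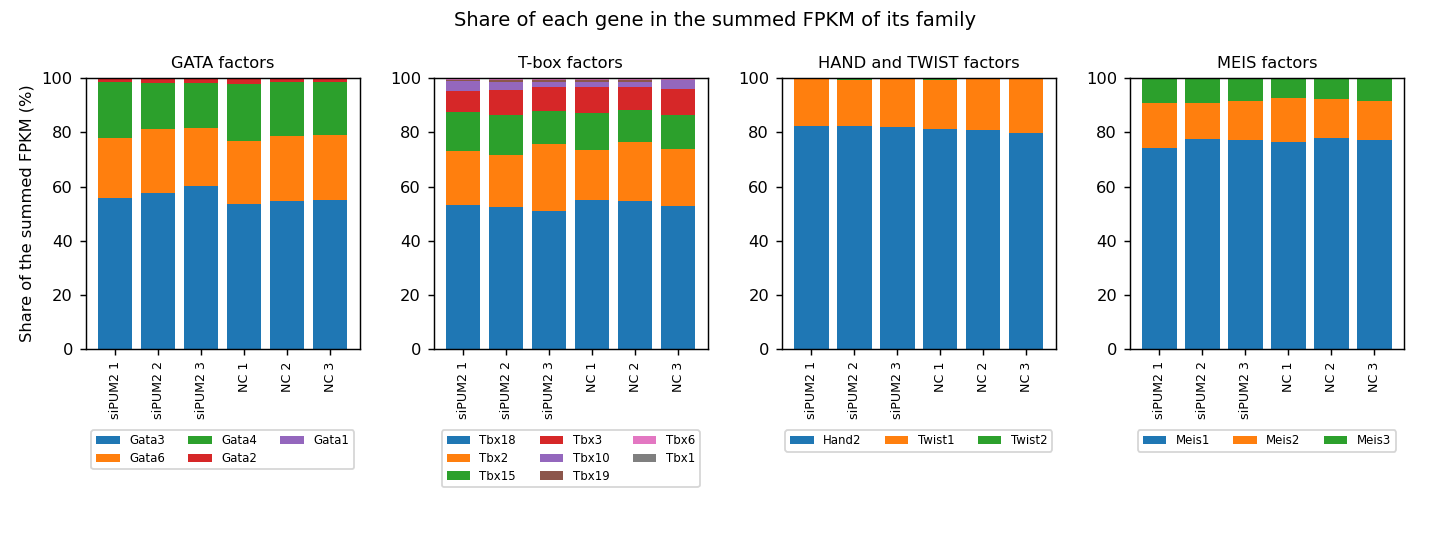
Share of each gene in the summed FPKM of its family in each library (stacked bars, siPUM2 left of NC), for GATA, T-box, HAND and TWIST, and MEIS genes with a row. The T-box sum leaves out Mga, Tbr1 and Tbx4. Gata3 and Tbx18 take the largest shares of the GATA and T-box families, and Hand2 and Meis1 those of the other families, in all 6 libraries.

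The relatives and partners of these factors were followed in lists drawn up by family. Each count of called genes in these lists stands beside 28.4% called of all genes tested, a share over genes of all depths. In the GATA list, which includes the FOG cofactors, 6 of 7 genes had a row, 5 were tested and 0 were called by edgeR. The count was 0 as well at an unadjusted p under 0.05, with DESeq2 and with limma voom. The lowest p belonged to Zfpm2 (FOG2, the GATA4 cofactor of the heart), with 16.9, 16.4 and 17.0 CPM in siPUM2 1, 2 and 3, against 14.9, 15.7 and 15.5 CPM in NC 1, 2 and 3 (log2 fold change 0.13, adjusted p = 0.149, edgeR). The groups of Zfpm2 did not overlap. Gata3 had 34.9 to 37.5 CPM in siPUM2 and 31.0 to 35.6 CPM in NC (log2 fold change 0.11, adjusted p = 0.158, edgeR). The cofactor Zfpm1 (0.11, adjusted p = 0.233) and the GATA-type repressor Trps1 (-0.05, adjusted p = 0.626) did not pass the test.

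Of 14 other T-box genes 10 had a row, 6 were tested and 1 was called. This was Mga, a large protein that joins a T-box to a bHLH domain and dimerizes with MAX, at 14.8 ± 0.411 CPM in siPUM2 and 17.2 ± 1.07 CPM in NC (SD, n = 3 each). Mga fell by 0.21 on the log2 scale (adjusted p = 0.0191, edgeR), and the call was lost with DESeq2 (adjusted p = 0.0551), on both FPKM scales and without siPUM2 1 (0.056), siPUM2 2 (0.0751) or NC 3 (0.116). Tbx18 was expressed at 7.28 FPKM in siPUM2 and 7.43 in NC, above Tbx2 at 2.97 and 2.84 and Tbx15 at 1.91 and 1.75, and none of these 3 was called. Tbx19 and Tbx10 had 13 to 43 counts per library in siPUM2 and 12 to 37 in NC, too few for a close estimate. Tbx1, a factor of the pharyngeal arches and outflow tract, had 0 counts in each siPUM2 library and 2 to 3 counts per library in NC. Its counts were near 0 in both groups, and it did not enter the test.

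Among the bHLH relatives and E proteins, the dimer partners of HAND factors, 5 were tested and 1 was called. Tcf4 fell by 0.17 on the log2 scale, with 18.9 ± 1.31 CPM in siPUM2 and 21.3 ± 0.654 CPM in NC (SD, n = 3 each; adjusted p = 0.0392, edgeR), a call that was lost with DESeq2 (0.0952), on both FPKM scales and without siPUM2 1 (0.218), siPUM2 2 (0.0830), NC 1 (0.0687) or NC 3 (0.126). Tcf3 was the highest by FPKM, 29.5 in siPUM2 and 30.5 in NC, and Twist1, a bHLH factor of mesenchyme, had 19.6 and 19.7. Neither passed the test, nor did Tcf12 (log2 fold change -0.07, adjusted p = 0.332, edgeR). Twist2 had 2 to 17 counts per library in siPUM2 and 3 to 19 in NC.

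All 10 genes of the MEIS and PBX list had a row and were tested, and 2 rose and 2 fell. Pknox1, a TALE protein that like MEIS1 partners PBX proteins, had 15.4, 15.1 and 15.5 CPM in siPUM2 1, 2 and 3, against 18.1, 17.1 and 18.8 CPM in NC 1, 2 and 3. No siPUM2 library reached the lowest NC library, and Pknox1 fell by 0.23 on the log2 scale (adjusted p = 0.00804, edgeR). Pbx3 rose by 0.18 (50.4 ± 2.42 CPM in siPUM2 and 44.5 ± 0.432 CPM in NC, adjusted p = 0.00576), and so did Tgif1, a TALE repressor tied to TGF-beta signalling, by 0.21 (56.6 ± 1.52 and 48.9 ± 2.57 CPM, adjusted p = 0.00105). Meis2 and Meis3 did not pass the test. Without siPUM2 1 the adjusted p of Pbx3 was 0.0533, and it was no longer called.

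Of the NKX and LIM homeodomain list, 8 of 18 genes had a row, and 1 of the 8 tested was called. Ldb1, the adaptor that links LIM homeodomain proteins such as ISL1 into complexes, rose 1.08-fold, with 99.99 ± 3.10 CPM in siPUM2 and 92.6 ± 1.93 CPM in NC (SD, n = 3 each; adjusted p = 0.00810, edgeR). The adjusted p of Ldb1 was 0.0911 without siPUM2 1 and 0.0707 without NC 2. The highest LIM homeodomain gene was Lhx2 at 2.81 FPKM in siPUM2 and 3.04 in NC, which did not pass the test. Lhx3 and Lhx6 were lower still, at most 0.673 FPKM in the group means.

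**Figure D4:**
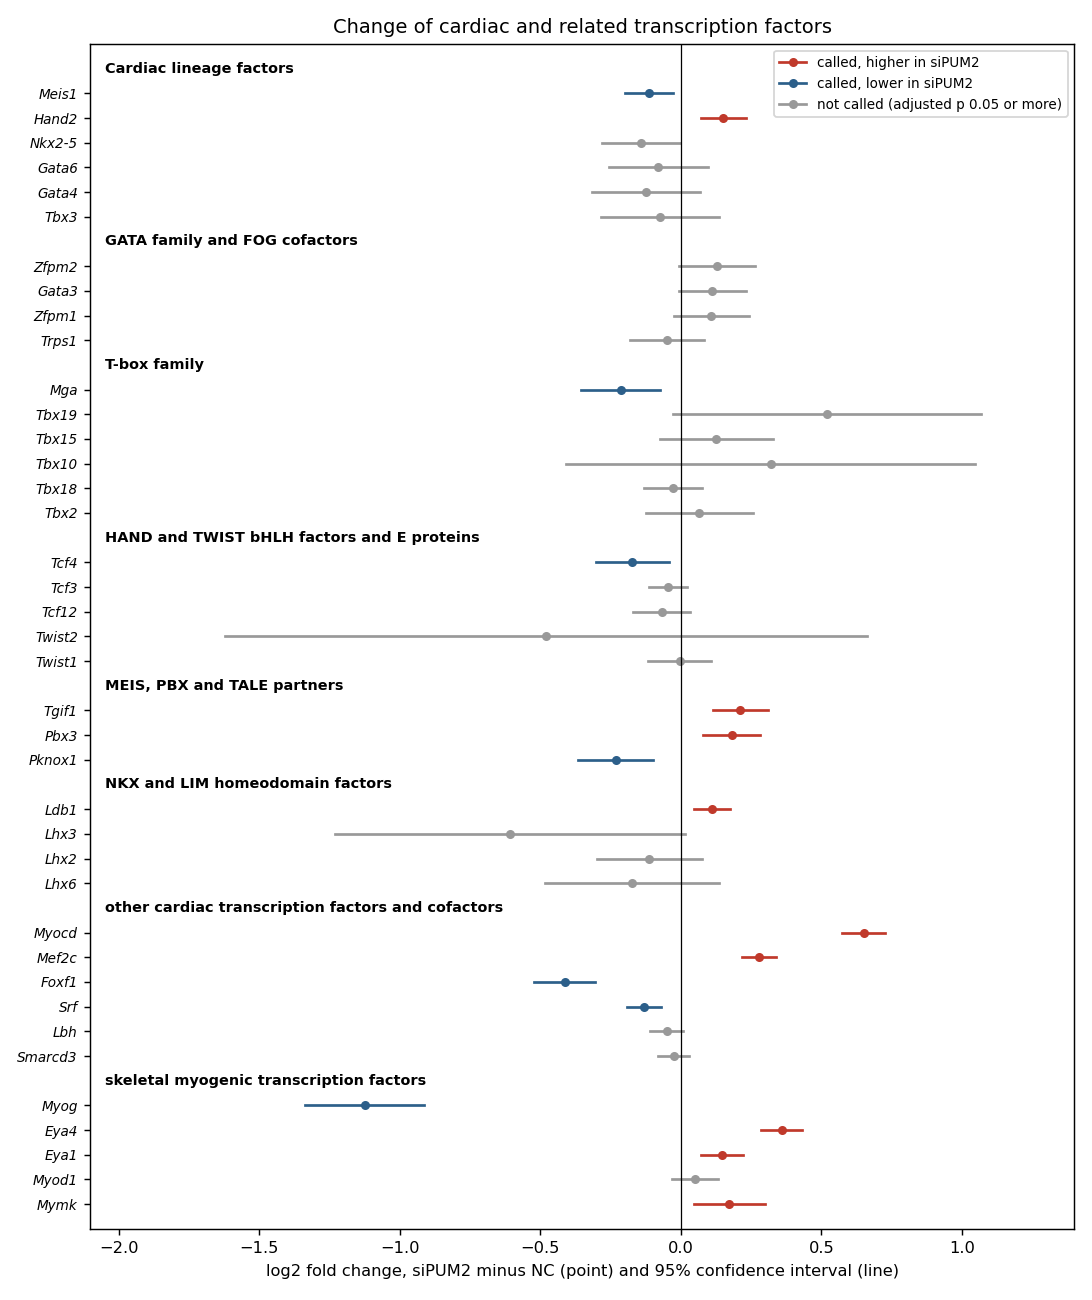
Log2 fold change, siPUM2 minus NC (points), with its unadjusted 95% interval (lines), for the cardiac lineage factors and named genes of the related lists. Hand2 and Meis1 are the called cardiac lineage factors at 0.15 and -0.11, while Myocd at 0.65 and Myog at -1.12 lie farther from 0.

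Larger changes were found among other transcription factors of the heart. Of 40 on the list 30 had a row, 23 were tested, 5 rose and 4 fell (39.1% called, beside 28.4% of all genes tested). The median log2 fold change of the list was -0.03. Myocd, the coactivator of SRF that drives cardiac and smooth muscle genes, had 84.3, 90.6 and 87.7 CPM in siPUM2 1, 2 and 3, against 54.4, 57.2 and 55.6 CPM in NC 1, 2 and 3. The groups were far apart, and the rise was 1.57-fold (log2 fold change 0.65, adjusted p = 1.18e-13, edgeR). Mef2c, a MADS-box factor of cardiac and skeletal muscle, rose 1.21-fold, with 107.9 ± 1.13 CPM in siPUM2 and 89.0 ± 1.54 CPM in NC (SD, n = 3 each; adjusted p = 2.45e-08). Srf itself fell by 0.13 on the log2 scale, with 90.8 ± 0.824 CPM in siPUM2 and 99.5 ± 1.32 CPM in NC (adjusted p = 0.00106). Foxf1, a forkhead factor of lung and gut mesenchyme, fell by 0.41, with 52.5 ± 2.92 CPM in siPUM2 and 69.98 ± 6.5 CPM in NC (adjusted p = 5.55e-07). Lbh and Smarcd3, the BAF60c subunit that works with GATA4 and TBX5 in the mouse, were the highest of the list by FPKM. Lbh had 93.3 FPKM in siPUM2 and 96.9 in NC, Smarcd3 had 72.2 and 73.6, and neither was called, though Lbh passed without NC 3 (adjusted p = 0.0441).

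Genes of heart muscle that are known as targets of these factors were split in level. Of 48 on the list 38 had a row, and 19 were at 1 CPM or more in all NC libraries. The highest by FPKM was Ankrd1, a stress-responsive nuclear and sarcomeric protein, at 1188 FPKM in siPUM2 and 963 in NC. Next came the troponins Tnnc1, at 465 FPKM in siPUM2 and 329 in NC, and Tnnt2, at 296 and 186. Gja5 (connexin 40, regulated by NKX2-5 and TBX5 in the mouse) had 152 FPKM in siPUM2 and 135 in NC, and the calsequestrin Casq2 had 160 and 118. At the other end, several sarcomere genes that define working heart muscle, and the calcium handling gene Ryr2, were near 0. Myh6 (alpha myosin heavy chain) had 5, 9 and 20 counts in siPUM2 1, 2 and 3, against 21, 12 and 20 counts in NC 1, 2 and 3. Myh7 had 2 to 3 counts per library in siPUM2 and 0 to 2 in NC, Actc1 0 to 4 and 1 to 7, Tnni3 0 to 4 and 0 to 5, Mybpc3 0 to 5 and 3 to 6, and Ryr2 0 in each siPUM2 library and 1 to 2 in NC. Myl2 and Myl7 had at most 1 count in any siPUM2 library and 0 in all NC libraries.

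The label of cardiomyocytes was checked against a marker list, and most defining markers were at or near 0. Of 12 markers 11 had a row, and 3 (Tnnt2, Nppb and Ttn) were at 1 CPM or more in each NC library. Per length, however, Ttn was near 0 too, at a mean of 0.01 FPKM in NC, against 2.39 for Nppb and 186 for Tnnt2. The sum over the list was 442 to 499 CPM in siPUM2 and 279 to 334 CPM in NC, nearly all of it Tnnt2. By the same rule, and of the markers with a row, 8 of 11 of skeletal muscle, 7 of 7 of smooth muscle, 6 of 10 of fibroblasts and epicardium, 3 of 9 of endothelium, 1 of 5 of macrophages (Cd14) and 0 of 5 of Schwann and neural cells were present in NC. Some of these were low per length in NC, such as Myh3 of skeletal muscle at 0.24 FPKM and Vwf of endothelium at 0.22 FPKM. The fibroblast and epicardial markers present were Thy1, Col1a1, Col1a2, Col3a1, Postn and Tbx18. Others of that list were near 0 in NC: Pdgfra had 0 to 1 counts per library, Lum 0 to 3, Dcn 4 to 6 and Wt1 7 to 15. By FPKM the highest fibroblast marker was Col1a2, at 1564 FPKM in siPUM2 and 1544 in NC. The highest smooth muscle marker was Acta2, at 6120 FPKM in siPUM2 and 5408 in NC.

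**Figure D5:**
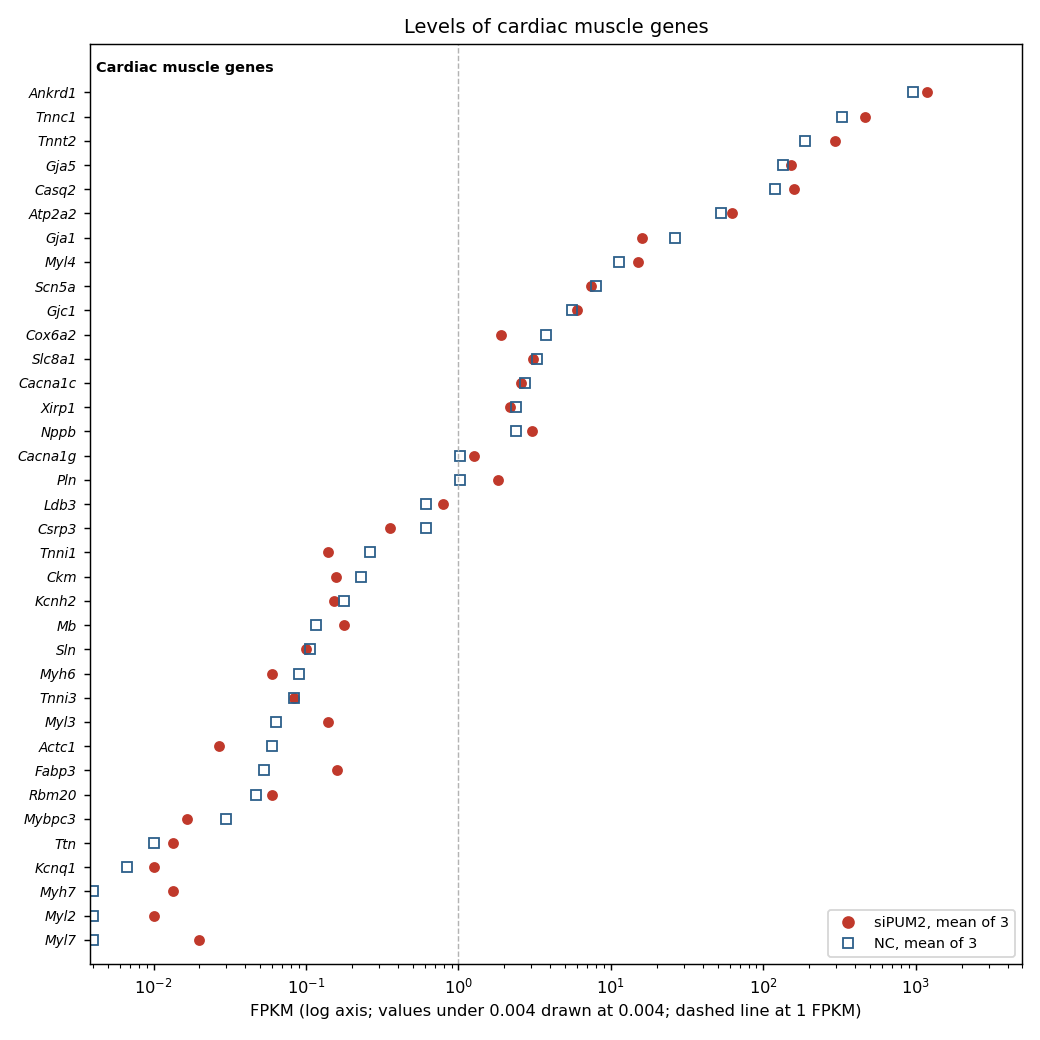
Mean FPKM on a log axis of the genes of heart muscle with an FPKM value, for siPUM2 (filled circles) and NC (open squares), 3 libraries each. Ankrd1, Tnnc1 and Tnnt2 lie at the top, and Myh6, Myh7, Actc1, Tnni3, Myl2 and Myl7 lie below 0.1 FPKM in both groups.

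Of the 24 heart muscle genes tested, 10 rose and 4 fell (58.3% called, beside 28.4% of all genes tested). Their median log2 fold change was 0.14. With DESeq2 11 of the 24 were called, and 3061 of all genes, against 3692 of all genes with edgeR. Tnnt2 had 436.5, 493.9 and 491.2 CPM in siPUM2 1, 2 and 3, against 273.7, 329.8 and 290.0 CPM in NC 1, 2 and 3, without overlap. It rose 1.59-fold (adjusted p = 2.86e-12, edgeR). Tnnc1 rose 1.42-fold, Casq2 1.35-fold and Ankrd1 1.24-fold (adjusted p = 3.08e-11, 1.00e-12 and 5.60e-11). Gja1 (connexin 43) went the other way, with 57.6 ± 0.828 CPM in siPUM2 and 93.6 ± 3.59 CPM in NC (SD, n = 3 each), and fell by 0.70 on the log2 scale (adjusted p = 1.50e-14). Tnnt2 and Tnnc1 are also made in embryonic or slow skeletal muscle, so their presence is not particular to the heart.

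The cells carried factors of skeletal muscle beside those of the heart. Myod1, the master factor of skeletal muscle, had 87.8, 77.3 and 87.3 CPM in siPUM2 1, 2 and 3, against 83.4, 82.2 and 78.4 CPM in NC 1, 2 and 3. The groups overlapped (log2 fold change 0.05, adjusted p = 0.371, edgeR). Per length it stood at 38.2 FPKM in siPUM2 and 37.0 in NC, below Hand2 and above Meis1 and Nkx2-5 in both groups. Myog (myogenin), which acts later in differentiation, had 9.68, 9.22 and 8.79 CPM in siPUM2 1, 2 and 3, against 15.9, 24.4 and 19.9 CPM in NC 1, 2 and 3, with no overlap (log2 fold change -1.12, adjusted p = 1.86e-09, edgeR). Of 10 skeletal myogenic genes tested 4 rose and 2 fell (60.0% called, beside 28.4% of all genes tested), with a median log2 fold change of 0.16. With DESeq2 4 of the 10 were called. Eya4 and Eya1, transcriptional cofactors of muscle precursors, rose by 0.36 and 0.15 on the log2 scale and the fusion protein gene Mymk by 0.17, all called by edgeR. The call of Mymk (adjusted p = 0.0360) was lost with DESeq2 (0.0777), on both FPKM scales and without siPUM2 2 (0.0738), siPUM2 3 (0.0808), NC 1 (0.105) or NC 3 (0.135). Mymx, the partner of Mymk in myoblast fusion, went the other way and fell by 0.70, with 21, 30 and 28 counts in siPUM2 1, 2 and 3, against 52, 37 and 45 counts in NC 1, 2 and 3 (adjusted p = 0.0420, edgeR). This call was lost with DESeq2 (0.0892) and without siPUM2 1 (0.162), siPUM2 3 (0.0645), NC 1 (0.202) or NC 3 (0.0751). Myf5, Pax3 and Pax7 had no row and are not analysed here.

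Over all 8 lists, with each gene counted once, 120 of 164 genes had a row and 90 were tested. Of these, 21 rose and 14 fell, 38.9% of those tested, beside 28.4% of all genes. Their median log2 fold change was 0.05, and 27 of them were called with DESeq2.

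Across the 6 libraries, the genes whose log2 CPM most resembled that of Hand2 among 8717 genes of at least 10 CPM were Bod1l1 (Pearson r = 0.998), Uqcr11 (0.994) and Fez2 (0.994). Those most like Meis1 were Dbnl (0.995), Pyroxd1 (0.994) and Nfyc (0.988). Bod1l1 had 25.5, 25.5 and 26.2 CPM in siPUM2 1, 2 and 3, against 23.9, 23.7 and 22.3 CPM in NC 1, 2 and 3, so its highest library was siPUM2 3 and its lowest NC 3, as for Hand2. These r describe 6 libraries that fall into 2 groups, were picked as the highest of 8717 genes, and carry no p.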

How the data were processed

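Counts per gene and FPKM values (rounded to 2 decimals) were used as the authors deposited them. Per the labels' protocols, polyadenylated RNA was made into directional libraries and sequenced from both ends. HISAT2, DESeq2 and the build mRatBN7.2 appear in the submitters' processing notes; their versions, the annotation and how strand was counted are not given in the sources that were used. No row lacked a gene name (0 counts), and 0 columns belonged to other samples.

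Groups came from titles and treatment labels. The test was edgeR 4.0.16 (glmQLFit and glmQLFTest in R 4.3.3) with TMM, filterByExpr and no term but group. Filtering took out 6840 genes with 0.0465% of the counts, and the Benjamini-Hochberg adjustment ran over the remaining 12985. The common biological coefficient of variation was 3.47%. Changes are given as log2 of siPUM2 over NC, with SE and 95% intervals from the quasi-likelihood F statistic. Libraries of one group all differed beyond sampling noise. The script was tested on simulated counts. A gene counts as present at 1 CPM or more in all 3 libraries of a group.

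The factors and lists were chosen with earlier results of these data known. Named from each list were the 4 genes of lowest p and the 2 of highest FPKM in NC, and, for likeness, the 3 genes of highest r with each called factor. Some genes that this rule takes are not reported here. Other genes named were chosen after their values were seen, among them Tbx1, Gja5, Mymx, the named fibroblast markers, Meis2, Meis3, Ryr2 and the sarcomere genes. Gene names and start regions came from RefSeq tables of the assembly GRCr8, used for names, overlaps and sequences only. As alternatives, DESeq2 1.42.0, other scaling factors, limma 3.58.1 (voom, and log2 FPKM with a pseudocount of 1 or 0.1), other filters and thresholds, the replicate block and leaving out each library were run.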

Additional observations from a re-analysis of the deposited data

How the results depend on the processing

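The 6 factors kept their direction under all 16 alternatives, and Hand2 was called in 15 of them (adjusted p 0.00342 to 0.0564), Meis1 in 9 (0.0240 to 0.169) and Nkx2-5, Gata4, Gata6 and Tbx3 in 0, with lowest adjusted p of 0.0620, 0.0893, 0.330 and 0.443. The count of factors called, 2, was 1 with DESeq2, log2(FPKM + 1), log2(FPKM + 0.1) and an adjusted p under 0.01, and 1 to 2 with each library left out. The count of factors present, 6, was the same at 0.5 CPM, 5 CPM and 1 FPKM. All genes called, 3692, numbered 3004 to 3538 with a library left out. With the replicate number as a block, 2 factors, 34 list genes (35 without it) and 3731 genes were called. For libraries of equal number the correlation of their deviations was 0.0342, 0.0204 and 0.0027. For unequal numbers it lay between -0.058 and 0.037. These deviations also hold counting scatter, so low values do not show that equal numbers were unpaired. The log2 fold changes of Tbx18, Tbx2 and Twist1, none of them called, changed sign in some fits that left out a library. Tbx18 ranged from -0.0781 to 0.0237 (positive without siPUM2 3), Tbx2 from -0.0267 (without NC 1; -0.0135 without siPUM2 3) to 0.135, and Twist1 from -0.0374 to 0.0132 (positive without siPUM2 1, siPUM2 2 at 0.0087 and NC 2 at 0.0025). The cause was not tested. Of 636 values of 40 other genes of the lists, 604 kept direction and call. The rest were 25 losses of a call, among them those of Ldb1, Mga, Mymk, Pbx3 and Tcf4, 1 gain by Lbh, and the 6 changes of sign above. Depth limits the low factors: Tbx3, at 199 to 257 counts per library, had an SE of 0.102 (log2), against 0.0392 for Hand2.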
